A study of Rattus norvegicus with 36 samples.

Results

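The genes described here are nuclear-encoded genes of the oxidative phosphorylation complexes, mostly of structural subunits. They were measured in liver of rats given decabromodiphenyl oxide (decaBDE), a flame retardant. They were taken by symbol. A probe set belonged if its platform annotation gave a single symbol that started with Ndufa, Ndufb, Ndufc, Ndufs, Ndufv, Uqcr, Cox4 to Cox8 or Atp5, or that was Sdha, Sdhb, Sdhc, Sdhd or Cyc1. Assembly factors of the Ndufaf series were left out, and the brightest probe set stood for each gene. The rule used no response to dose. It gave 81 of the 14217 genes measured with 1 symbol, read by 90 of 31042 probe sets. Complex I had 36 genes, complex II had 4, complex III had 8, complex IV had 17 and complex V had 16. A further 7 probe sets that also carried another symbol were not used. Cox6c-ps1, which RefSeq lists as a transcribed pseudogene, met the rule by its symbol and was kept. So were Atp5if1, which encodes an inhibitor protein of complex V, and Cox7a2l, whose product joins complexes in supercomplexes. All are counted among the subunit genes below. Ndufa4 was counted in complex I by its symbol, although its product is now placed in complex IV.

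The animals were male Harlan Sprague Dawley rats, 7 weeks old at the start, dosed by oral gavage on 5 consecutive days with decaBDE in corn oil at 5 ml/kg body weight. The groups were corn oil vehicle (0 mg/kg) and decaBDE at 0.1 mg/kg, 0.959 mg/kg, 9.59 mg/kg, 95.9 mg/kg or 959 mg/kg, with 6 arrays each. RNA came from the left liver lobe, taken 1 day after the last dose, and was read on 36 single-colour Affymetrix 3′ arrays. The labels number the arrays of a group but do not say outright that each is a separate rat, so p-values measure the spread between these arrays. Liver tissue holds several cell types, and in such bulk RNA fewer cells of a type and less RNA per cell cannot be told apart. All 36 arrays had close to the same median signal (5.12 to 5.21 on the log2 scale), and the array of the 0.1 mg/kg group numbered 6 received the lowest estimated quality weight, 0.517. Hepatocyte markers were bright in every group (a mean over 9 markers of 13.67 to 13.76 in the 959 mg/kg arrays and 13.73 to 13.78 in the vehicle arrays). At 9.59 mg/kg this mean ran from 13.64 to 13.71, wholly below vehicle. The 6 measured muscle markers were all dimmer than the median probe set.

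Oxidative phosphorylation moves electrons from NADH through complex I, and from succinate through complex II, to ubiquinone, then through complex III to cytochrome c and through complex IV to oxygen. The proton gradient made on the way drives complex V, the ATP synthase. Most subunits are nuclear genes whose products enter the mitochondrion, while a core few are encoded by mitochondrial DNA. Hepatocytes are rich in mitochondria, and the transcription factors NRF1, GABP (an ETS factor), YY1 and the nuclear receptor ERRA are known regulators of many of these nuclear genes.

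No subunit gene of any complex passed the test at any dose. In limma's moderated test with Benjamini-Hochberg adjustment over all 31042 probe sets, 0 of 81 members were called at 0.1 mg/kg, where the background of called probe sets was 0%. The count was also 0 of 81 at 0.959 mg/kg (background 0.029%), at 9.59 mg/kg (0.116%), at 95.9 mg/kg (0.0902%) and at 959 mg/kg (0.11%). A straight line over dose rank called 0 members (background 0.393%), and the F-test over the 5 doses called 0 (0.135%). The same held for all 90 member probe sets, and an ordinary linear model without variance moderation also called 0 members in each comparison. The smallest adjusted p of any member in the 5 dose comparisons was 0.401, for Atp5f1c at 9.59 mg/kg. With backgrounds this close to 0, a list of 81 genes would hold few calls even if it moved like the average probe set.

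At an unadjusted p under 0.05, 1 member was higher at 959 mg/kg (background 3.55% higher) and 0 were lower (2.53%). The counts higher were 1 at 0.1 mg/kg (2.22%), 0 at 0.959 mg/kg (3.12%), 6 at 9.59 mg/kg (4.66%) and 3 at 95.9 mg/kg (3.53%). No member was lower at this level at 0.1 mg/kg (background 1.56%), 0.959 mg/kg (2.95%), 9.59 mg/kg (3.95%) or 95.9 mg/kg (3.49%). The dose-rank line gave 2 members with a positive slope (4.66%) and 0 with a negative one (4.05%), and the F-test gave 1 (7.53%). The members behind these counts were Ndufa5 at 0.1 mg/kg, Ndufa5, Ndufab1, Ndufv3, Uqcrc1, Atp5f1c and Atp5pf at 9.59 mg/kg, Ndufab1, Ndufv3 and Atp5if1 at 95.9 mg/kg, and Ndufv3 at 959 mg/kg. All of the 5 dose comparisons share the same 6 vehicle arrays, so a member that lay low in vehicle counts as high at every dose.

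For each gene and dose taken singly, the values bound the size of a difference in signal closely. At 959 mg/kg the 95% interval of the log2 fold change lay within ±0.3, a fold of 1.23, for all 81 members, and within ±0.2, a fold of 1.15, for 70 of them. The widest reach upward was 0.26 for Ndufv3, a fold of 1.20, and the widest reach downward was -0.27 for Cox6b2, a fold of 0.830. Intervals lay within ±0.3 for 80 members at 0.1 mg/kg, for 79 at 0.959 mg/kg, for 80 at 9.59 mg/kg and for 81 at 95.9 mg/kg. The largest log2 fold change in either direction of any member at any dose was 0.17, for Ndufa5. These bounds hold for the brightest probe set of each gene, and they do not cover all members and doses jointly. For dim probe sets, such as that of Cox6b2, they bound the signal and say little about the transcript. A second, dim Ndufa7 probe set (mean signal 5.78) differed by 0.28 ± 0.11 at 959 mg/kg (SE, limma adjusted p = 0.725), where the brighter one used here differed by 0.068. The intervals rest on a small spread of the subunit genes between arrays. The median within-group SD of the members was 0.0760 on the log2 scale, against 0.141 over all probe sets, and the median standard error at 959 mg/kg was 0.050, against 0.0805. Sdhd, a membrane anchor of complex II, varied least (SD 0.0385), and Cox6b2, known as a testis isoform of complex IV, varied most (SD 0.217).

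**Figure D1:**
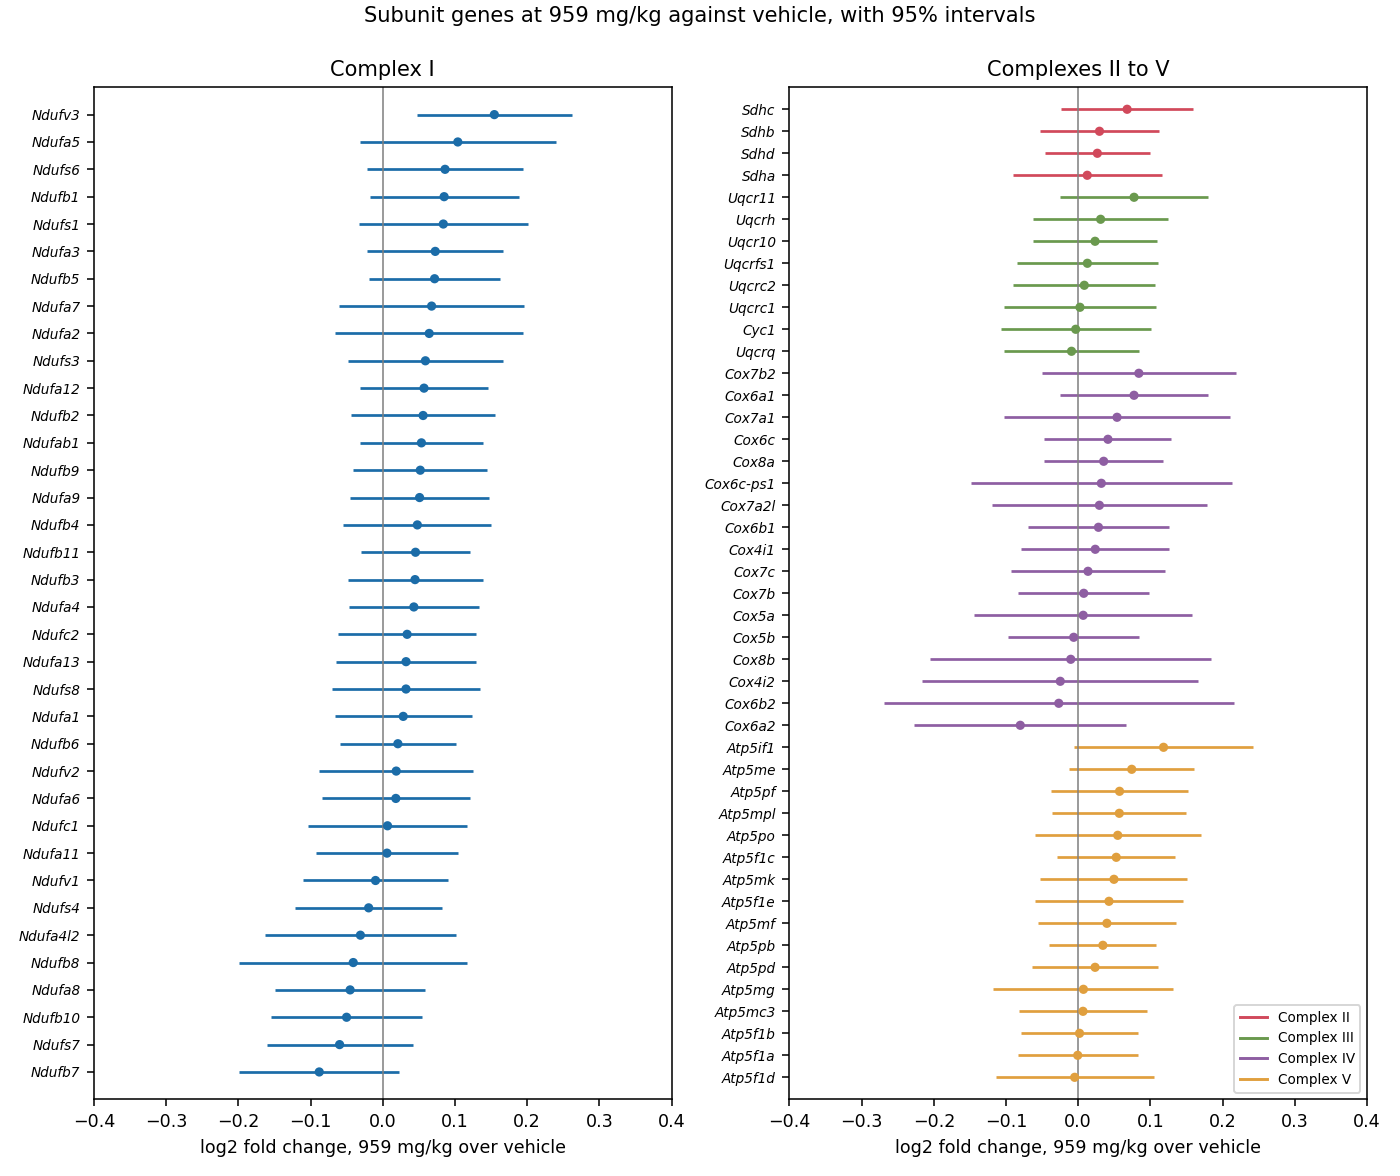
Log2 fold change of each of the 81 subunit genes at 959 mg/kg over vehicle (x axis, log2 scale), with the gene on the y axis; points are limma estimates from 6 arrays per group, bars are 95% intervals and colours mark the complexes. All intervals lie between -0.3 and 0.3, and only that of Ndufv3 leaves out 0.

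The small differences that were measured leaned upward at every dose. Those of bright probe sets in general also leaned upward, but only slightly at 0.1 and 959 mg/kg. The median log2 fold change of the 81 members was 0.051 at 0.1 mg/kg, 0.026 at 0.959 mg/kg, 0.040 at 9.59 mg/kg, 0.020 at 95.9 mg/kg and 0.031 at 959 mg/kg. Over all probe sets the medians were 0.0059, 0.0043, 0.00016, -0.0037 and -0.0011 at the same doses. Over probe sets at or above the 75th percentile of signal they were 0.0097, 0.023, 0.030, 0.032 and 0.0050. These bright probe sets thus had a median close to that of the members at 0.959 mg/kg and above it at 95.9 mg/kg. Their median was below that of the members at 0.1, 9.59 and 959 mg/kg. The number of members with a positive value was 69, 63, 65, 63 and 64 of 81 from the lowest dose to the highest (85.2%, 77.8%, 80.2%, 77.8% and 79.0%). Over all probe sets 53.2%, 52.0%, 50.1%, 48.3% and 49.5% were positive, and over the bright ones 55.6%, 62.1%, 63.5%, 67.9% and 52.5%. Repeating the quantile normalization made these counts 68, 56, 55, 43 and 61, and centring each array on its median made them 71, 67, 73, 71 and 68. At 95.9 mg/kg the lean was thus 43 members up and 38 down under the repeated quantile normalization, and 71 up and 10 down under centring. A positive value at all 5 doses was seen for 43 members and a negative one for 3, namely Ndufa4l2, Ndufb8 and Cox6a2, all against the shared vehicle arrays.

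The complexes had similar medians. At 0.1 mg/kg the median log2 fold change was 0.054 for complex I, 0.029 for complex II, 0.056 for complex III, 0.048 for complex IV and 0.052 for complex V. At 959 mg/kg it was 0.044 for complex I, 0.028 for complex II, 0.011 for complex III, 0.024 for complex IV and 0.041 for complex V. No complex had a negative median at any dose. The medians of complex III ran downward in the order of the doses (0.056, 0.037, 0.032, 0.020 and 0.011), all above vehicle, and those of the other four had no such order. Without 959 mg/kg array 2 the complex III median at the top dose was -0.0038, and without 959 mg/kg array 5 it was 0.035, so its place in that order rested on single arrays. Without 959 mg/kg array 2, the medians of complexes I, IV and V were 0.022, 0.0069 and 0.026, and without 959 mg/kg array 4 that of complex II was 0.014. The members of a complex are read from the same arrays and are not replicates, so no test was made between complexes.

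**Figure D2:**
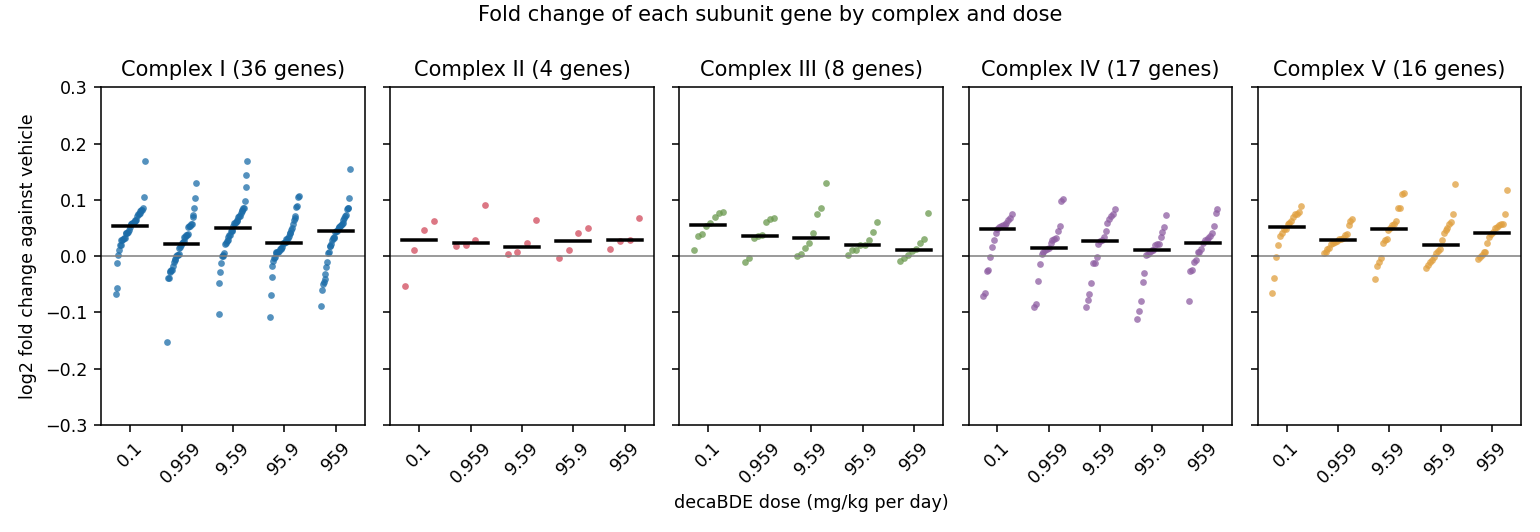
Log2 fold change against vehicle (y axis) of each subunit gene by decaBDE dose in mg/kg (x axis), with a panel for each complex; points are genes, sorted within a dose, and black bars are medians. The points of every complex and dose lie between -0.2 and 0.2, and the medians lie a little above 0, in complex III in descending order by dose.

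The same lean can be read array by array. Each member was centred on its mean over the 36 arrays, and the median over members was taken in each array. This median averaged 0.0027 ± 0.054 at 959 mg/kg, with a range of -0.069 to 0.087, and -0.026 ± 0.020 in vehicle, with a lowest value of -0.054 (log2, SD, n = 6 each). The means at the other doses were 0.017 at 0.1 mg/kg, -0.0014 at 0.959 mg/kg, 0.014 at 9.59 mg/kg and -0.0026 at 95.9 mg/kg, with SDs of 0.045, 0.046, 0.040 and 0.046. Of the 30 arrays of dosed rats, 16 lay above every vehicle array, 2 lay below every one and the rest lay among them. The vehicle arrays were thus the tightest group and lay in the lower part of the range, while single arrays of different doses reached furthest: 0.094 in 0.1 mg/kg array 6, 0.087 in 959 mg/kg array 2 and -0.084 in 95.9 mg/kg array 4.

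**Figure D3:**
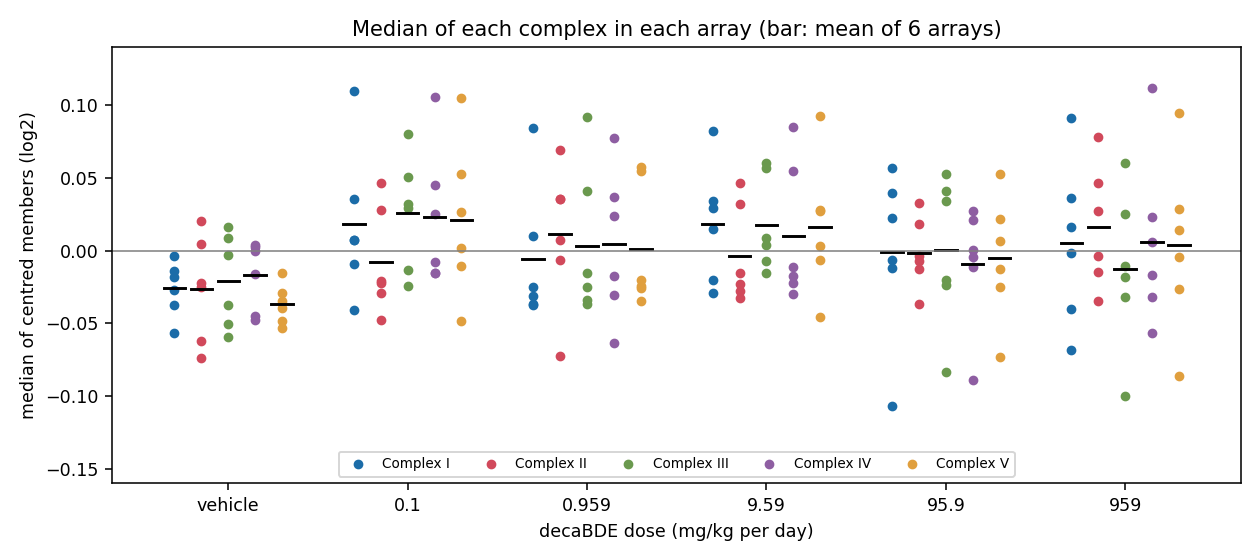
Median of the centred log2 signals of the members of each complex (y axis) in each array, by dose in mg/kg (x axis); points are arrays, colours are complexes and black bars are means of 6 arrays. For complex V the vehicle points lie closest together (SD 0.014) and 20 of the 30 arrays of dosed rats lie above all of them, while for complex II the vehicle points are spread more widely (SD 0.037) and 11 of 30 lie above all of them.

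Complex I is the largest group. Ndufv3, an accessory subunit of the NADH-oxidising module, had the largest difference at the top dose. Its lowest, median and highest log2 signals were 10.55, 10.58 and 10.64 in vehicle, 10.59, 10.69 and 10.78 at 0.1 mg/kg, 10.60, 10.66 and 10.85 at 0.959 mg/kg, 10.64, 10.72 and 10.84 at 9.59 mg/kg, 10.59, 10.71 and 10.76 at 95.9 mg/kg, and 10.61, 10.77 and 10.87 at 959 mg/kg. The vehicle arrays were low and tight, every dose group overlapped them or touched their top, and 4 of 6 arrays at 959 mg/kg lay above all of them. The log2 fold change at 959 mg/kg was 0.15 ± 0.053 (SE), with an unadjusted p of 0.00609 and an adjusted p of 0.564. A second, dimmer Ndufv3 probe set gave 0.11 at the same dose (limma adjusted p = 0.893).

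Ndufa5, an accessory subunit near the ubiquinone site, ran from 9.79 to 10.04 with a median of 9.83 at 959 mg/kg, against 9.67 to 9.92 with a median of 9.76 in vehicle. Its log2 fold change was 0.17 ± 0.067 (SE) at both 0.1 and 9.59 mg/kg and 0.10 at 959 mg/kg, and its adjusted p was 1.00, 0.452 and 0.877 at these doses. Its groups overlapped at every dose. At the other end, Ndufb7, an accessory subunit of the membrane arm, ran from 10.67 to 10.93 at 959 mg/kg, against 10.78 to 11.01 in vehicle, a difference of -0.088 ± 0.055 (SE, adjusted p = 0.875). Ndufs7, a core subunit that carries an iron-sulfur cluster, ran from 10.70 to 10.93 at 959 mg/kg, against 10.82 to 11.01 in vehicle, a difference of -0.060 (adjusted p = 0.913). Both groups of arrays overlapped for either gene. Ndufb8, a membrane-arm subunit often used as a marker of complex I assembly, had the largest within-group SD of the complex (0.135), and Ndufb11, another membrane-arm subunit, had the smallest (0.0428). Ndufb8 ran from 8.86 to 9.22 at 959 mg/kg, against 8.89 to 9.26 in vehicle. Ndufab1, which is also the mitochondrial acyl carrier protein, ran from 11.86 to 11.99 with a median of 11.90 at 9.59 mg/kg, against 11.73 to 11.86 with a median of 11.81 in vehicle, and 5 of these 6 arrays exceeded the highest vehicle array (difference 0.098, adjusted p = 0.503). Ndufa4 was nearly level, with a median of 12.65 at 959 mg/kg, against 12.62 in vehicle.

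Complex II, succinate dehydrogenase, is wholly nuclear-encoded and also serves the citric acid cycle. Its flavoprotein gene Sdha had log2 signals with a lowest, median and highest value of 10.88, 11.11 and 11.21 at 959 mg/kg, against 11.01, 11.10 and 11.13 in vehicle. The iron-sulfur subunit gene Sdhb had 11.83, 11.92 and 11.98 at 959 mg/kg, against 11.82, 11.89 and 11.94 in vehicle. These groups lay on top of each other. The anchor genes Sdhc and Sdhd differed from vehicle by 0.068 ± 0.045 and 0.026 ± 0.036 at 959 mg/kg (SE, adjusted p = 0.883 and 0.963). The interval of Sdhd, from -0.046 to 0.099, was the narrowest of the 81 members.

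In complex III, Cyc1, which encodes cytochrome c1, had a lowest, median and highest signal of 11.15, 11.26 and 11.39 at 959 mg/kg, against 11.14, 11.30 and 11.36 in vehicle, a difference of -0.0035 (adjusted p = 0.997). Uqcrc1, a core subunit, had the smallest F-test p of the complex (0.104, adjusted 0.741). It ran from 11.53 to 11.77 with a median of 11.59 at 9.59 mg/kg, against 11.42 to 11.56 with a median of 11.46 in vehicle, and the groups overlapped. At 959 mg/kg the Uqcrc1 median was 11.51, so the higher values at 9.59 mg/kg had no counterpart at the top dose. Among the small subunits, Uqcr11 differed by 0.077 and Uqcrh, the hinge protein gene, by 0.031 at 959 mg/kg, while Uqcrq differed by -0.0093, with adjusted p of 0.881, 0.965 and 0.993 in that order.

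Complex IV, cytochrome c oxidase, has subunits with tissue isoforms, and the array reads several pairs. The isoforms of most tissues were bright: Cox4i1 had a lowest, median and highest signal of 12.46, 12.59 and 12.69 at 959 mg/kg, against 12.52, 12.55 and 12.66 in vehicle. Cox6a1 had 11.999, 12.11 and 12.21 at 959 mg/kg, against 11.97, 12.02 and 12.13 in vehicle, and Cox8a, the least variable of the complex, had 12.42, 12.45 and 12.47 at 959 mg/kg, against 12.37, 12.41 and 12.47 in vehicle. In each of the 3 the groups overlapped. The isoforms known from other tissues gave dim signals: Cox4i2 (lung), Cox6a2, Cox7a1 and Cox8b (heart and skeletal muscle), and Cox6b2 and Cox7b2 (testis). Their medians at 959 mg/kg were 3.84 for Cox4i2, 4.38 for Cox6a2, 4.51 for Cox7a1, 3.87 for Cox8b, 3.74 for Cox6b2 and 3.10 for Cox7b2. In vehicle they were 3.89, 4.45, 4.40, 3.84, 3.83 and 2.97 in the same order. The largest difference of these at 959 mg/kg was 0.084 for Cox7b2 (adjusted p = 0.911), so none of these isoforms passed the test. Brightness depends on the probes as well as on the transcript, and signals of different probe sets are not compared here as amounts. With Ndufa4l2 of complex I and the pseudogene Cox6c-ps1, these made up 8 dim members, a group named after their levels were seen. The other 73 lay at or above the 84.7th percentile of all probe sets, and 72 of the 81 lay above the 90th. Cox7a2l, whose product joins complexes III and IV in supercomplexes, ran from 10.36 to 10.72 at 959 mg/kg, against 10.29 to 10.77 in vehicle.

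Complex V held the member with the largest non-overlap. Atp5f1c, the central stalk subunit of the F1 part, had a lowest, median and highest signal of 12.39, 12.41 and 12.46 at 9.59 mg/kg, against 12.28, 12.31 and 12.32 in vehicle. All arrays of that dose exceeded the highest vehicle array, which was true of 1 of 81 members and of 0.435% of all probe sets. The difference was 0.11 ± 0.040 (SE, adjusted p = 0.401), and at 959 mg/kg, where the range was 12.23 to 12.41, it was 0.053 and the groups overlapped. No other member was free of overlap with vehicle in either direction at any dose. Among all probe sets, the share lying wholly above vehicle was 0.0741% at 0.1 mg/kg, 0.267% at 0.959 mg/kg, 0.332% at 95.9 mg/kg and 0.283% at 959 mg/kg. The share lying wholly below it was 0.0677% at 0.1 mg/kg, 0.142% at 0.959 mg/kg, 0.171% at 9.59 mg/kg, 0.235% at 95.9 mg/kg and 0.161% at 959 mg/kg. Atp5if1, the inhibitor protein that stops the synthase from running backward, had the steepest line over dose rank among the probe sets used, 0.034 ± 0.010 per step (SE, unadjusted p = 0.00215, adjusted p = 0.194). Its median was 8.97 in vehicle, 8.87 at 0.1 mg/kg, 8.99 at 0.959 mg/kg, 9.02 at 9.59 mg/kg, 9.14 at 95.9 mg/kg and 9.07 at 959 mg/kg, so the lowest group was the smallest dose. A dimmer Atp5if1 probe set differed by -0.28 at 9.59 mg/kg (limma adjusted p = 0.320), where the brighter one used here differed by 0.047 and another dim one by 0.046. Over dose rank these dim probe sets had slopes of 0.0041 and 0.0019 per step (limma unadjusted p = 0.789 and 0.912), so the line rested on the bright probe set. Atp5f1a, the alpha subunit, was level, with 12.38, 12.45 and 12.53 at 959 mg/kg, against 12.40, 12.45 and 12.53 in vehicle. Atp5pb, of the peripheral stalk, varied least in the complex (SD 0.0409) and Atp5mg, of the membrane part, varied most (SD 0.101). Differences at 959 mg/kg in the rest of the named genes of complex V were 0.074 for Atp5me and -0.0049 for Atp5f1d.

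**Figure D4:**
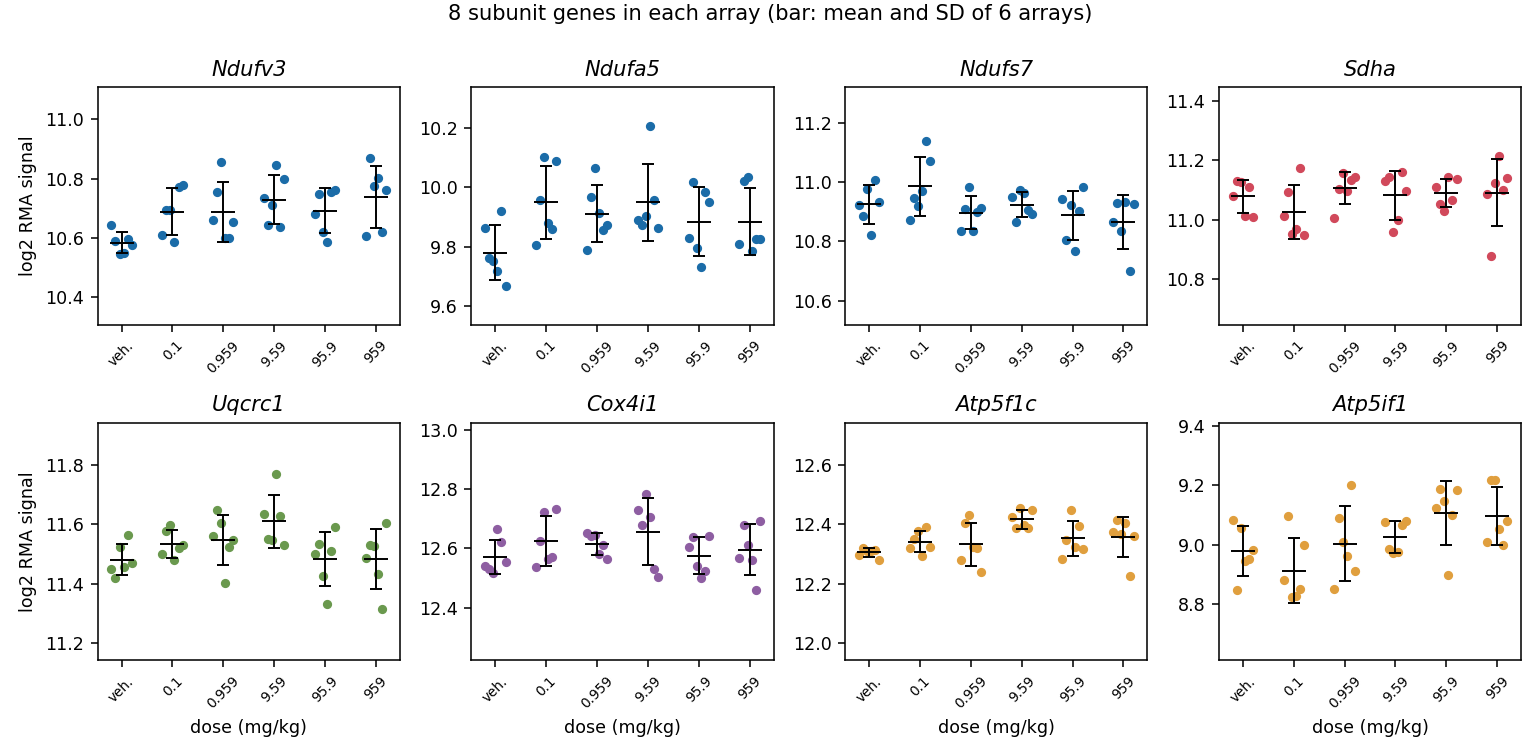
Log2 RMA signal (y axis) of 8 subunit genes in each array, by decaBDE dose in mg/kg (x axis); points are arrays, black bars are the mean and SD of 6 arrays, colours mark the complexes, and each panel has its own signal range of the same height. Ndufv3 lies low in vehicle, Atp5f1c at 9.59 mg/kg lies wholly above vehicle, and the other panels overlap at every dose.

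The subunit genes varied together between arrays of the same dose. After the group means were removed, Pearson's r over the 36 arrays had a median of 0.391 across the 2628 pairs of the 73 bright members, and 88.0% of the pairs were positive. Over all pairs of the 14217 genes the median was 0.0014, and over pairs of genes at or above the 75th percentile of signal it was 0.052. Pairs within the 76 measured genes of the mitochondrial ribosome had a median of 0.409, with 96.2% positive. Pairs within 40 assembly factors had 0.196. Covariation of this size was thus not particular to the subunit genes. The pairs share arrays and their normalization, so these r values are a description. The median stayed between 0.359 and 0.405 when any single array was left out, was 0.288 after repeated quantile normalization and was 0.459 after centring on array medians.

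Pairs from the same complex were no closer than pairs from different ones, as far as the medians show. Pairs within a complex had a median r of 0.384, against 0.393 for pairs from different complexes. Within the complexes the median was 0.367 in I, 0.234 in II, 0.393 in III, 0.463 in IV and 0.434 in V. The closest match of 22 of the 73 bright members (30.1%) lay inside their own complex, and 30.2% of all their pairs are within a complex. The closest pair of all was Ndufs6, an accessory subunit of complex I, with Atp5po, the stalk protein of complex V that confers oligomycin sensitivity (r = 0.900). Cox6b1 of complex IV with Atp5po followed (r = 0.863), then Uqcrq of complex III with Cox7c of complex IV (r = 0.844). The medians of whole complexes moved in the same way, with r of 0.921 between I and III, 0.910 between I and V and 0.851 between I and IV. Complex II had lower values of 0.308 to 0.583 with the other complexes. Its median was taken over 4 genes, Sdha among them, against 8 to 36 genes in the others. The part of this in its lower values was not tested.

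A few members ran apart from the rest. Sdha had a median r of -0.256 with the other 72 bright members, was negative with 60 of them, and reached -0.671 with Ndufb1. Uqcrc2 (-0.089), Cox5a (-0.077), Ndufs1 (-0.059) and Atp5f1a (-0.031) also had negative medians. Uqcrc2, a core protein of complex III, and Ndufs1, the largest iron-sulfur subunit of complex I, were close to each other (r = 0.756), and the nearest member to Sdha was Uqcrc2 (r = 0.597). The highest median values belonged to Atp5po (0.613), Cox7c (0.591) and Cox6b1 (0.569).

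**Figure D5:**
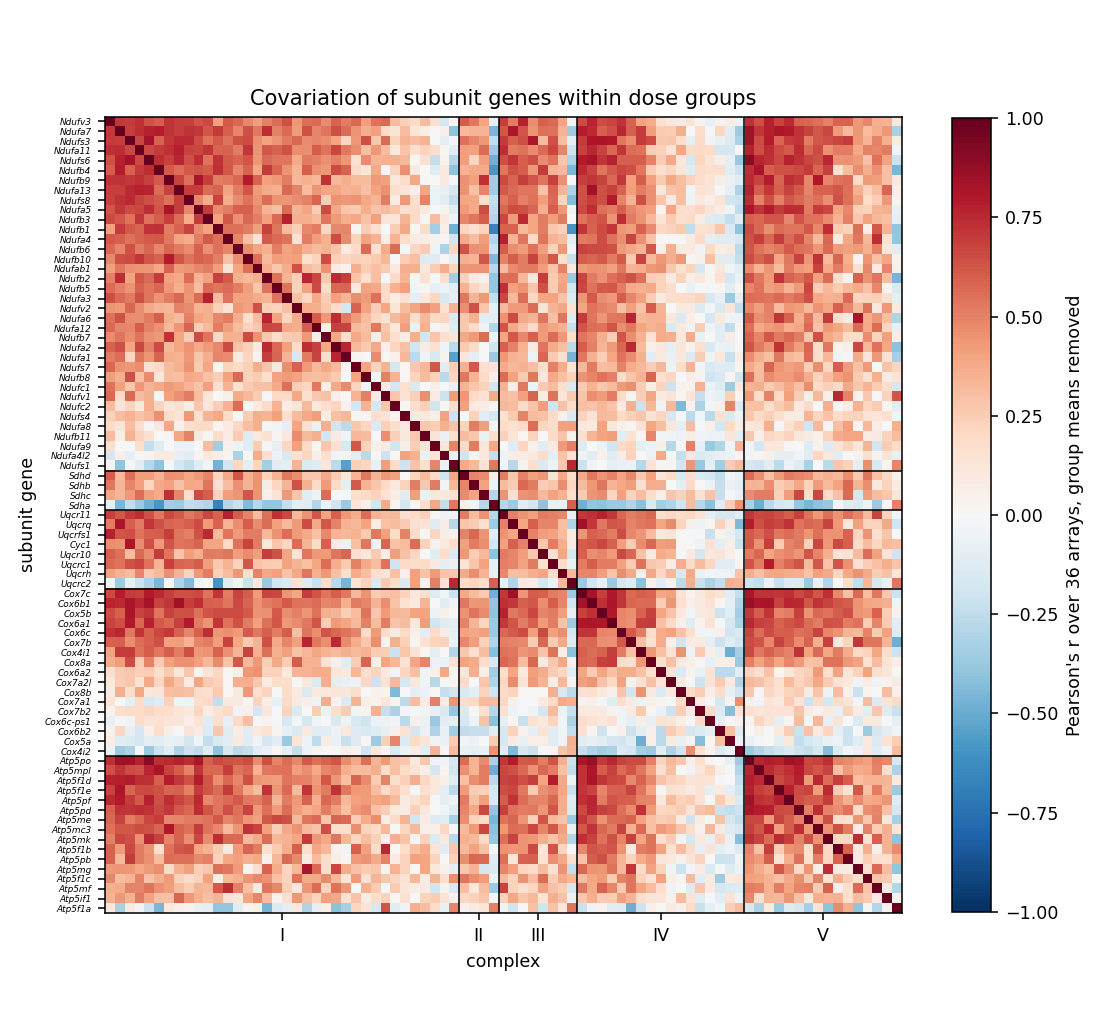
Pearson's r (colour, from -1 in blue to 1 in red) between all pairs of the 81 subunit genes over 36 arrays with group means removed; genes run down the y axis and, in the same order, along the x axis, grouped by complex and sorted by their median r with the other members. Red runs across the borders of the complexes, and Sdha is negative with most of the bright members. Uqcrc2, Ndufs1, Cox5a and the dim isoform Cox4i2 have mixed lines, with more negative than positive values against the bright members.

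Promoters were set beside these patterns. RefSeq promoters of the GRCr8 assembly, each with 250 bases before the annotated start and 50 after it, were matched by gene for 72 of the 81 members. The search on both strands used GCGCNTGCG for NRF1, CCGGAAG for the ETS family with GABP, AAGATGGCG for YY1 and CAAGGTCA for ERRA. The promoters of 6 members are shown in lower case with matches to these 4 motifs in capitals. Sdha is shown as the gene that ran most apart (chr1:30764303-30764602, plus strand), Ndufs6 (chr1:31797150-31797449, plus strand) and Atp5po (chr11:44657434-44657733, minus strand) as the closest pair, and Ndufv3 as the gene with the largest difference at 959 mg/kg (chr20:9613536-9613835, plus strand). Cox4i1 (chr19:65630133-65630432, plus strand) and Cox8b (chr1:205408224-205408523, minus strand) stand for the bright and the dim isoforms of complex IV.
Sdha: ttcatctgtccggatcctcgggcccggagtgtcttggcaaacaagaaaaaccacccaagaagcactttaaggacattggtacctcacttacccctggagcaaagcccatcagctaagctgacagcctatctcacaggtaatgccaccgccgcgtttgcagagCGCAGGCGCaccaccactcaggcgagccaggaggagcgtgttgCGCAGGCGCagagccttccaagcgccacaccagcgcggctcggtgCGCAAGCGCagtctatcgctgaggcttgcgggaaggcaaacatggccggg
Ndufs6: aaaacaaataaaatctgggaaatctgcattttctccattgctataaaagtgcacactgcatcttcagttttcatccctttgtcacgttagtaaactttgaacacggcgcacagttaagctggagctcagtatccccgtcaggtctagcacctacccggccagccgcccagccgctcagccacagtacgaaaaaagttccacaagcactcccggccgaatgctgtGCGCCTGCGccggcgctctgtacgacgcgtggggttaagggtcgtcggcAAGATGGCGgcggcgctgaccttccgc
Atp5po: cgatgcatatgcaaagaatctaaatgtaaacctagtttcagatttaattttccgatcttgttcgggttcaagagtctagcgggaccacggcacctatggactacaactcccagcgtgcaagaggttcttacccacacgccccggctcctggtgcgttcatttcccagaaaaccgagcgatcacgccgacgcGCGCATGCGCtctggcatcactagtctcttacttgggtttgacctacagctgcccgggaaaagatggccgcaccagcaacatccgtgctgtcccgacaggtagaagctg
Ndufv3: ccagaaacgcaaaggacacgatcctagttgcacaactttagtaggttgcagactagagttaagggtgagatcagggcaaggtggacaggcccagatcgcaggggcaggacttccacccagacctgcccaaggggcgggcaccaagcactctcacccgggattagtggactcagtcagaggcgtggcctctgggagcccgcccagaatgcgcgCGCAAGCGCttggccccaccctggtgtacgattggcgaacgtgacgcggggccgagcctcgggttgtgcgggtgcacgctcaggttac
Cox4i1: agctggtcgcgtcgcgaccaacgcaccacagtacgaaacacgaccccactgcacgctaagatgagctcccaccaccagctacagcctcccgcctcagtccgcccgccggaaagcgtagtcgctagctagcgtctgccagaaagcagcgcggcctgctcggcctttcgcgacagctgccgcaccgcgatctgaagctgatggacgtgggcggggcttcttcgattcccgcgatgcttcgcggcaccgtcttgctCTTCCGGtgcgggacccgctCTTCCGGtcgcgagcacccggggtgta
Cox8b: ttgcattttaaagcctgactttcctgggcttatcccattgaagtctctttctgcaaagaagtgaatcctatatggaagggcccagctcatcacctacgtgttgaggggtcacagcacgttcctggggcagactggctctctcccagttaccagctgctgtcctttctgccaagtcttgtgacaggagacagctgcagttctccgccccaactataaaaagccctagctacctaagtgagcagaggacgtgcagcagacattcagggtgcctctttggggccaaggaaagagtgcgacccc

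The Sdha promoter held 3 NRF1 matches, Atp5po held 2 that overlap, Ndufs6 and Ndufv3 held 1 each, Ndufs6 also held a YY1 match, Cox4i1 held 2 ETS matches on the opposite strand just after its start, and Cox8b held none. The closest pair and the gene that ran most apart thus all carried the NRF1 letters. Over the 72 members, an NRF1 match was present in 18 (25%), against 5.75% of all 33469 promoters and 11.3% of the promoters of genes on the array. An ETS match was present in 20 (27.8%), against 8.75% and 15.1%. A YY1 match was present in 10 (13.9%), against 1.73% and 3.14%, and an ERRA match in 3 (4.17%), against 1.52% and 0.932%. A search with 1 more base, a C at the end of the NRF1 letters or a G at the end of the YY1 letters, matched 13 members for NRF1 (18.1%, against 4.25% of all promoters) and 9 for YY1 (12.5%, against 0.980%). Either an NRF1 or an ETS match was present in 35 (48.6%), against 13.4% and 23.8%, and 3 members, Atp5me, Atp5mg and Sdhd, had both. For comparison, CCAAT was present in 25 (34.7%), against 37.5% and 37.3%, and TATAAA in 8 (11.1%), against 14.2% and 8.45%. The median GC content was 56.0% in the member promoters, against 51.7% in all promoters and 60.0% in those of genes on the array. The NRF1 letters can match on both strands a base apart, and such overlapping matches occurred in Atp5me, Atp5po and Ndufa11, which count once each in these shares. No match to one factor's letters overlapped a match to another's among the 4 motifs.

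By complex, ETS letters were matched in 7 of 34 promoters of complex I, 2 of 4 in II, 3 of 6 in III, 3 of 13 in IV and 5 of 15 in V. NRF1 was matched in 7 of 34 complex I promoters, 2 of 4 in complex II, 2 of 6 in complex III, 0 of 13 in complex IV and 7 of 15 in complex V. YY1 was matched in 7 of the 34 complex I promoters (Ndufa2, Ndufa6, Ndufa9, Ndufb8, Ndufs4, Ndufs6 and Ndufs7), in each beginning 4 to 26 bases after the annotated start. Of the 6 dim members with a promoter, 0 held an NRF1, ETS, YY1 or ERRA match. No test was made between complexes. A match is only a run of letters in this window, and its absence says nothing about the factor.

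Other genes of mitochondrial energy metabolism were read beside the subunits. Of the mitochondrial-encoded subunits, COX1 and COX2 were measured, and at 959 mg/kg they differed by -0.18 ± 0.13 and -0.0034 ± 0.038 (log2, SE, adjusted p = 0.901 and 0.996). Among 40 measured assembly factors 0 were called at any dose (background at most 0.116% at each dose), with a median of 0.068 at 959 mg/kg. At an unadjusted p under 0.05, 6 of the 40 were higher at 959 mg/kg (background 3.55%). The counts higher were 3 at 0.1 mg/kg (2.22%), 5 at 0.959 mg/kg (3.12%), 8 at 9.59 mg/kg (4.66%) and 6 at 95.9 mg/kg (3.53%). At each dose 0 were lower at that level. At 959 mg/kg Acad9, which assembles complex I, differed by 0.26 (adjusted p = 0.139) and Sdhaf4, which assembles complex II, by 0.35 (adjusted p = 0.422). Of 13 regulators of mitochondrial biogenesis 0 were called at any dose (the same background). At an unadjusted p under 0.05, 0 of them were higher at 959 mg/kg (background 3.55%) and 1 was lower (2.53%). The coactivator gene Ppargc1b differed by -0.33 (adjusted p = 0.644) and Tfam, the mitochondrial transcription factor gene, by 0.090 (adjusted p = 0.852) at 959 mg/kg.

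Of 12 citric acid cycle genes 0 were called at any dose, and Idh2 and the citrate synthase gene Cs differed by 0.25 and 0.13 at 959 mg/kg (adjusted p = 0.328 and 0.744). At an unadjusted p under 0.05, 2 of the 12 were higher at that dose (background 3.55%) and 0 were lower (2.53%). Of 22 genes for electron carriers and exchange 0 were called at any dose. At 959 mg/kg 1 of them was higher and 1 lower at that unadjusted level. At this dose Gpd2, of the glycerol phosphate shuttle, differed by -0.34 and Coq2, of ubiquinone synthesis, by 0.18 (adjusted p = 0.725 and 0.751). The mitochondrial ribosome was the only one of these lists with a call in a dose comparison: Mrpl14 rose at 9.59 mg/kg by 0.32 (adjusted p = 0.0371), where 0.116% of all probe sets were called. The median of its 76 genes was 0.106 at that dose, and 32 of them were higher at an unadjusted p under 0.05 (background 4.66%). At 959 mg/kg the median was 0.050, with 7 of 76 higher (background 3.55%). The bright subunit genes also ran with the mitochondrial ribosome between arrays, with a median r of 0.346 over all pairs, against 0.204 with assembly factors, 0.089 with the citric acid cycle and -0.014 with the regulators.

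Marker lists of cell types also had medians above or below vehicle, but 0 markers of any list were called at any dose (background at most 0.116% at each dose). These comparisons too share the same 6 vehicle arrays. All 7 Kupffer cell markers measured were below vehicle at every dose, with median log2 fold changes of -0.45 at 0.1 mg/kg, -0.49 at 0.959 mg/kg, -0.30 at 9.59 mg/kg, -0.15 at 95.9 mg/kg and -0.19 at 959 mg/kg. Their mean signal per array ran from 8.06 to 8.83 at 959 mg/kg, against 7.98 to 9.02 in vehicle. At an unadjusted p under 0.05, 3 of these 7 were lower at 0.1 mg/kg (background 1.56%) and 5 at 0.959 mg/kg (2.95%). At each of the higher doses 0 were lower at that level. Between arrays of a group these 7 markers ran closely together, with a median pairwise r of 0.937. They are therefore not 7 separate readings. The 3 cholangiocyte markers measured had a median of 0.33 at 959 mg/kg, with 3 of 3 higher at an unadjusted p under 0.05 (background 3.55%). At 95.9 mg/kg they had 0.29, with 1 of 3 higher (3.53%). The 7 stellate cell and fibroblast markers had a median of 0.25 at 95.9 mg/kg, with 4 higher at that level (background 3.53%), and 0.028 at 959 mg/kg. At 0.959 mg/kg the 6 endothelial markers had a median of -0.18 and the 6 lymphocyte markers -0.21, with 3 of each lower at that level (background 2.95%). At 959 mg/kg the medians of these 2 lists were -0.086 and -0.12. The 9 hepatocyte markers had a median of -0.054 at both 9.59 mg/kg and 95.9 mg/kg, with 7 of 9 below vehicle at each. At 959 mg/kg their median was 0.0010, with 4 of 9 below vehicle. Between arrays of a group the Kupffer cell markers had a median r of -0.013 with the bright subunit genes, and the 9 hepatocyte markers had -0.075. The 3′ minus 5′ signal of the actin control, a measure of RNA quality, averaged 1.24 ± 0.15 at 0.1 mg/kg, 1.14 ± 0.073 at 959 mg/kg and 1.16 ± 0.050 in vehicle (log2, SD, n = 6 each). The part of these measures in the upward lean of the subunit genes was not tested. Many of these genes also have processed pseudogenes, and whether their probe sets read them was not tested.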

How the data were processed

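The values are log2 signals that the authors made with RMA in the affy package, per the submitters' processing notes (versions not given in the sources used here), and deposited as 1 table of 36 arrays. RMA corrects background, quantile-normalizes and summarises probes, which reduces array-wide shifts before any comparison. The array medians of the deposited values still ran from 5.12 to 5.21. Arrays were grouped by their titles. The table has 31099 probe sets. After removal of 57 array controls, 20826 had a single symbol, 436 had several and 9780 had none. The test was limma's lmFit and eBayes (version 3.58.1, R 4.3.3), two-sided, on all 36 arrays with a mean for every group. It had 30 residual degrees of freedom, to which the moderation added 5.12. The labels name maanova for the study's own test, and limma took its place here. Benjamini-Hochberg adjustment of p-values covered the 31042 probe sets left, and 0.05 was the threshold. The dose-rank line took vehicle to 959 mg/kg as equal steps. The number of arrays limits the precision. On simulated data for 959 mg/kg against vehicle (31042 probe sets, 50 changed at each size), the fit called 0% at a log2 change of 0.1, 18% at 0.25, 78% at 0.5 and 98% at 1, with 5 false calls. The changed probe sets were drawn at random from all probe sets and varied independently. The members had a smaller spread and varied together, so these shares are not detection rates for the subunit genes.

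The members, the related lists and the marker lists were chosen with earlier results of these data known. Members named singly were those past the threshold in any comparison, the 2 most positive and 2 most negative of each complex at 959 mg/kg, those with the smallest F-test p and the smallest or largest within-group SD, and a list of isoforms and other subunits. From each related list the 2 genes with the smallest p at 959 mg/kg were named. Other genes in the correlation paragraphs, and Mrpl14 as the single call of its list, were named after their values were seen. Correlations and promoters were computed with Python 3.11.15, pandas 2.3.3 and scipy 1.17.1. Alternatives were other normalizations, variance models, probe set choices, samples in the fit and dose scales, and each array left out.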

Additional observations from a re-analysis of the deposited data

Results flagged for a closer look

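Among 252 groups of 6 arrays tested (the named members and the complex medians in each group), 13 held an array whose gap to its nearest neighbour was too large a part of the group's range by Dixon's test at its 95% critical value. Chance alone gives about 1 in 20 such groups. In the 0.1 mg/kg group, array 6 was high for Cox6a1 (12.25, next 12.08) and Cox6b1 (11.80, next 11.66), and array 5 was low for Cox7a2l (10.40, next 10.64). In the 0.959 mg/kg group, array 3 was high for Ndufb7 (11.06, next 10.90). In the 9.59 mg/kg group, array 4 was high for Ndufa5 (10.21, next 9.96) and array 3 was high for Cox6a2 (4.64, next 4.38). In the 95.9 mg/kg group, array 4 was low for the complex IV median (-0.089, next -0.011), Ndufb7 (10.70, next 10.88), Cox6b1 (11.50, next 11.60) and Atp5if1 (8.90, next 9.10). There, array 3 was high for Cox6c-ps1 (5.66, next 5.42) and array 6 for Cox8b (4.32, next 3.85). In vehicle, array 4 was low for Uqcrh (11.38, next 11.51).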

How the results depend on the processing

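No member was called in any comparison under any of the other settings tried, and the smallest adjusted p of a member at 959 mg/kg over them was 0.310. All 3638 recomputed values of single members kept their side of the threshold, and none that was called changed sign, since none was called. With each array centred on its median, the median member log2 fold change at 9.59 mg/kg was 0.063, against 0.040 as deposited, while that of all probe sets moved to 0.023. Leaving out each array in turn gave a range of 0.038 to 0.060 at 0.1 mg/kg, 0.0081 to 0.034 at 0.959 mg/kg (the lowest without 0.959 mg/kg array 3), 0.028 to 0.052 at 9.59 mg/kg, 0.0051 to 0.035 at 95.9 mg/kg (without arrays 2 and 4 of that dose) and 0.019 to 0.044 at 959 mg/kg (the lowest without 959 mg/kg array 2). At 959 mg/kg the ranges were 0.022 to 0.057 for complex I, 0.014 to 0.038 for complex II, -0.0038 to 0.035 for complex III, 0.0069 to 0.030 for complex IV and 0.026 to 0.060 for complex V. With the replicate number as a block, 0 members were called in each comparison, the member medians were unchanged (0.031 at 959 mg/kg), and 29 of all probe sets were called at 959 mg/kg, against 34 without it. No sign of pairing by number was seen in the means. Arrays with the same number had a mean correlation of deviations of -0.022 (range -0.24 to 0.38). Those with different numbers had 0.0045 (range -0.30 to 0.35). These values do not settle whether the numbers pair the arrays. The alternatives on correlations were chosen after seeing the data. The cause of these shifts was not tested. Signal over background limits the 8 dim members, whose values carry little information on transcript level.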
